A study of Mus musculus with 8 samples.

Results

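The bone morphogenetic protein (BMP) ligand genes Bmp2, Bmp4 and Bmp7, the BMP receptor gene Bmpr1a, the inhibitory SMAD gene Smad6 and the 4 ID genes Id1, Id2, Id3 and Id4 were followed in cultured mouse keratinocytes (KCs), the epithelial cells of the epidermis. These 9 genes were picked by name, and all 9 were found among the 41457 genes of each deposited table. The KCs were prepared from tail skin of adult Wildtype C57BL/6 mice (C57BL/6J in the study's text). They were grown untreated in serum-free KC medium with little Ca++, for 1 week (4 samples) or 3 weeks (4 samples). Poly(A) RNA was sequenced, and the comparison asks how the RNA of the same kind of culture differs between the 2 times. The labels describe 4 independent experiments. According to the study's text, both times used cultures from shared KC batches. Numbers that come with the deposited tables and not with the labels are read here as preparation numbers. The labels and the study's text do not explain them. By this reading, 3 preparations occur at both times, and all later mentions of shared preparations rest on it. The main comparison did not pair the samples. As KCs were separated from the dermis and grown in vitro, the cultures are a limited model of skin.

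BMPs are secreted proteins that bind pairs of receptor kinases at the cell surface, and the activated receptors phosphorylate SMAD proteins, which enter the nucleus with SMAD4 and switch genes on or off. The ID genes are well-known targets of this pathway, and ID proteins bind E proteins and keep them from DNA, since ID proteins have no DNA-binding region of their own. In skin, BMP signalling is known for its roles in hair follicles and in the balance between growth and differentiation of epithelial cells, and secreted antagonists such as follistatin limit it.

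Reads on exons numbered 13896807 to 20026084 per sample at 1 week and 14096649 to 18127283 at 3 weeks. Levels are given as RPKM, the exon reads scaled by exon length and sequencing depth, as mean ± SD of 4 samples. Log2 fold changes, 3 weeks over 1 week, come with a standard error (SE) from the edgeR quasi-likelihood fit of the exon reads of 12590 genes, with p-values adjusted by the Benjamini-Hochberg method over all of these genes and a threshold of 0.05. The reads were scaled by TMM, which corrects for library composition, whereas RPKM values are not corrected in this way. In this fit the tested genes had a median change of 0.03 on the log2 scale, and -0.16 when log2(RPKM + 0.1) was fitted with limma, so that a gene with a fitted change near 0 has a somewhat lower RPKM at 3 weeks. Of the called genes 48.0% were higher at 3 weeks in the edgeR fit, and 29.9% in the limma fit of log2(RPKM + 0.1).

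The samples of 3 weeks were less alike than those of 1 week. In pairwise comparisons of exon reads, chi-square per degree of freedom was 15.5 to 64.7 within 1 week and 31.8 to 264 within 3 weeks, where replicates 1 and 2 were the closest pair and replicates 3 and 4 lay at 115 or more from every other sample of 3 weeks. Replicate 3 of 3 weeks also had the lowest TMM factor (0.853), and it had the highest Id1 and the lowest Bmp7 level of all samples. The number of genes past the threshold was 4861 without this sample and 4680 without replicate 4 of 3 weeks, against 4127. Without replicate 3 of 3 weeks the log2 fold changes were 1.90 for Id2 (adjusted p = 0.00540), 1.22 for Id1 (adjusted p = 0.109) and -0.62 for Bmp7 (adjusted p = 0.0692). Without replicate 4 of 3 weeks they were 2.07 for Id2 (adjusted p = 0.00316), 1.62 for Id1 (adjusted p = 0.0612) and -0.57 for Bmp7 (adjusted p = 0.0725).

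Among the 9 genes, Id2 and Id1 rose and Bmp7 fell between 1 and 3 weeks. Over the other ways of fitting and the omissions of a sample, Id2 kept its call, Id1 lost it in 11 and Bmp7 in 7. Bmp2, Bmpr1a, Id3 and Id4 did not pass the test, and Bmp4 and Smad6 had too few reads to be tested. Of all 12590 tested genes 32.8% passed the threshold, 15.7% as higher and 17.0% as lower at 3 weeks. The 3 calls among the 7 tested genes are too few to set the group apart from that background. The order of the mean levels was the same at both times, from Bmpr1a over Id3, Bmp7, Id1, Id2, Bmp2, Id4 and Smad6 to Bmp4. At 1 week the samples of Id3 and Bmp7 overlapped, and those of Id1, Id2 and Bmp2 overlapped among themselves. At 3 weeks Id3 stood above Bmp7 in all samples, Bmp7, Id1 and Id2 overlapped, and all samples of Id2 lay above those of Bmp2.

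**Figure D1:**
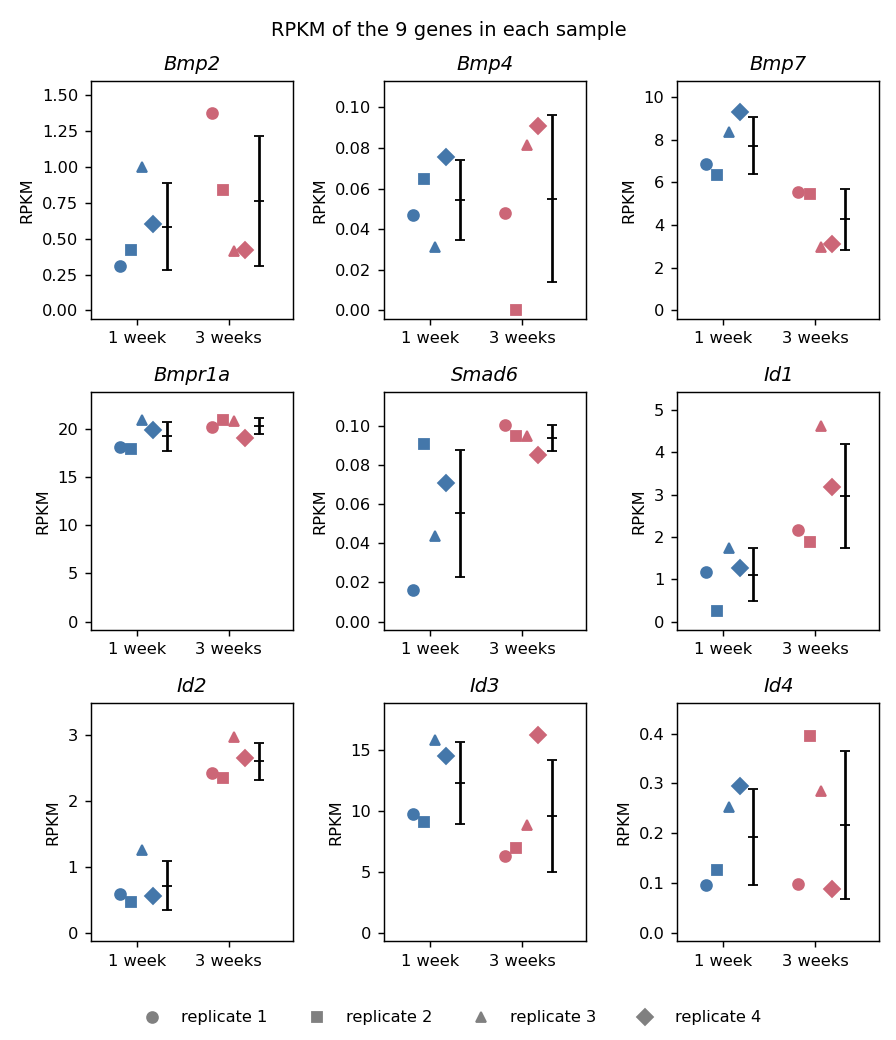
RPKM (vertical axis, linear, one scale per gene) of the 9 genes in the 4 samples of 1 week (blue) and the 4 samples of 3 weeks (red), with the symbol giving the replicate number and the black bar the mean ± SD. Id1 and Id2 lie higher and Bmp7 lower in all 3 weeks samples, whereas Bmpr1a stays between 17.9 and 21.0 RPKM and Bmp4 and Smad6 stay at 6 exon reads or fewer per sample.

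Bmp7 was the most abundant of the 3 ligand genes. Its RPKM values were 6.87, 6.35, 8.37 and 9.27 in replicates 1 to 4 of 1 week and 5.54, 5.43, 2.95 and 3.12 in replicates 1 to 4 of 3 weeks. All samples of 3 weeks lay below all samples of 1 week, and replicates 3 and 4 of 3 weeks were the lowest. Of the 12590 tested genes 37.0% had RPKM values that did not overlap between the groups, 10.8% as higher and 26.2% as lower at 3 weeks. The mean level was 7.72 ± 1.34 RPKM at 1 week and 4.26 ± 1.42 RPKM at 3 weeks, and the log2 fold change was -0.70 ± 0.23 (SE; adjusted p = 0.0455). The call was close to the threshold. It was lost without replicates 1, 3 or 4 of 1 week (log2 fold changes -0.77, -0.67 and -0.60) and without replicates 3 or 4 of 3 weeks (-0.62 and -0.57), with adjusted p-values up to 0.119. It was also lost in the 6 samples of the 3 preparation numbers that occur at both times (-0.75, adjusted p = 0.0890). A block by replicate number ended it as well (-0.73, adjusted p = 0.106). The gene lies on chromosome 2 (172868012 to 172940321, minus strand, GRCm38).

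Bmp2, which shares receptors with Bmp4, was expressed at a low level that varied among the cultures. In RPKM it had 0.310, 0.423, 0.999 and 0.606 in replicates 1 to 4 of 1 week and 1.37, 0.839, 0.411 and 0.421 in replicates 1 to 4 of 3 weeks. The groups overlapped, with the highest value in replicate 1 of 3 weeks, and the log2 fold change was 0.55 ± 0.48 (SE; adjusted p = 0.408). Without replicate 1 of 3 weeks it was 0.11, and without replicate 3 of 1 week it was 0.92. Bmp4 had between 0 and 3 exon reads per sample, 9 in all at 1 week and 8 at 3 weeks, so that no fold change is given. Bmp7 made up 92.5% ± 2.52 of the summed RPKM of the 3 ligand genes at 1 week and 84.5% ± 3.27 at 3 weeks. The share of Bmp2 was 6.80% ± 2.70 at 1 week and 14.2% ± 3.79 at 3 weeks. Other ligand genes were left out of this sum. Among them Bmp6, named after its values were seen, had means of 1.55 RPKM at 1 week and 1.62 RPKM at 3 weeks, above Bmp2.

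Bmpr1a, a type I receptor that binds BMP2 and BMP4, had the highest level of the 9 genes. The receptor gene had RPKM values of 18.2, 17.9, 21.0 and 19.9 in replicates 1 to 4 of 1 week and 20.3, 20.9, 20.9 and 19.1 in replicates 1 to 4 of 3 weeks. The groups overlapped. The log2 fold change was 0.24 ± 0.12 (SE; adjusted p = 0.137), and it ranged from 0.07 to 0.29 over all alternatives tried. Smad6, which encodes a SMAD that blocks BMP signalling and is itself known as a BMP target, had 1 to 6 exon reads per sample, with 13 reads in all at 1 week and 20 at 3 weeks. At this depth a difference in Smad6 was not detectable.

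Id2 showed the largest change of the 9 genes. It is located on chromosome 12 (25093799 to 25097140, minus strand, GRCm38) and encodes an ID protein. Start windows of 300 bases around the gene start given by RefSeq (GRCm38.p6) were held for 6 of the 9 genes, Bmp4, Bmpr1a, Smad6, Id2, Id3 and Id4. They were searched on both strands for GGCGCC, a GC-rich motif described for BMP-activated SMADs, for CAGACA, a motif that holds a SMAD box, and for CANNTG, the E-box that E proteins bind. Because Id2 was the gene with the firmest rise, the part of its window that lies outside all annotated exons (GENCODE release M21) is shown, chr12:25096254-25096342 on the minus strand, read 5′ to 3′, with the motif matches in capitals.
Id2: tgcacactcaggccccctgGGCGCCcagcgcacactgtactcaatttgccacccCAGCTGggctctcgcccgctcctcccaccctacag
The first match is GGCGCC and the other is an E-box, and they do not overlap. The 89 bases lie inside the gene region of the deposited tables. On this strand that region starts further upstream, at 25097140, so that for a transcript starting there the bases are not upstream sequence. In whole windows, GGCGCC was found in 3 of the 6 genes (Id2, Id4 and Bmpr1a), against 11.9% of all 32851 windows. CANNTG was found in 3 of the 6 genes (Bmp4, Smad6 and Id2), against 72.3% of all windows, and CAGACA in 0 of 6, against 21.0%. Id4 and Bmpr1a, which hold GGCGCC as well, did not pass the test. A match describes letters only and is no evidence of a bound site.

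The RPKM values of Id2 were 0.582, 0.458, 1.26 and 0.558 in replicates 1 to 4 of 1 week and 2.42, 2.35, 2.97 and 2.65 in replicates 1 to 4 of 3 weeks. All 4 samples of 3 weeks lay above those of 1 week, where replicate 3 was far above the others. The mean level was 0.714 ± 0.366 RPKM at 1 week and 2.60 ± 0.281 RPKM at 3 weeks. The log2 fold change was 2.05 ± 0.33 (SE; adjusted p = 0.00213), a rise of 4.14-fold, which passed the threshold in all alternatives tried. With the 3 preparations that, by the numbers of the deposited tables, occur at both times it was 1.79, and all of the 536 exon reads of Id2 mapped to a single place.

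Id1 rose as well, from a low level. Its RPKM values were 1.18, 0.251, 1.74 and 1.27 in replicates 1 to 4 of 1 week, which rest on 6 to 29 exon reads, and 2.17, 1.89, 4.62 and 3.17 in replicates 1 to 4 of 3 weeks, which rest on 36 to 88 exon reads. The groups did not overlap, but replicate 3 of 1 week and replicate 2 of 3 weeks were close. The mean level was 1.11 ± 0.624 RPKM at 1 week and 2.96 ± 1.23 RPKM at 3 weeks, and the log2 fold change was 1.62 ± 0.54 (SE; adjusted p = 0.0464). The call did not survive the omission of any of the 8 samples, with log2 fold changes from 1.22 (without replicate 3 of 3 weeks) to 1.89 (without replicate 3 of 1 week) and adjusted p-values from 0.0503 to 0.109. In the 6 samples of the 3 shared preparations the log2 fold change of Id1 was 0.85 (adjusted p = 0.147), and the call was also lost without a filter on low counts (adjusted p = 0.0528) and in the limma fit of log2(RPKM + 0.1) (adjusted p = 0.0536). Id1 lies on chromosome 2 (152736251 to 152737410, plus strand, GRCm38).

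Id3 was the most abundant ID gene at both times. Its RPKM values were 9.71, 9.11, 15.8 and 14.5 in replicates 1 to 4 of 1 week and 6.29, 6.93, 8.80 and 16.2 in replicates 1 to 4 of 3 weeks. Replicates 1 to 3 of 3 weeks lay below all samples of 1 week, and replicate 4 of 3 weeks had the highest value of all. The log2 fold change was -0.20 ± 0.32 (SE; adjusted p = 0.665), and over the omissions of a sample it ran from -0.54 (without replicate 4 of 3 weeks, adjusted p = 0.132) to -0.036 (without replicate 1 of 3 weeks, adjusted p = 0.949). Id4 had 5 to 25 exon reads per sample, and the groups overlapped, with a log2 fold change of 0.36 ± 0.58 (SE; adjusted p = 0.669). Only 67.0% of the exon reads of Id4 mapped to a single place, which makes its values less certain, and on these unique reads alone its log2 fold change was 0.74 (adjusted p = 0.368). The direction of Id4 turned in the 3 shared preparations (-0.19) and without replicate 2 of 3 weeks (-0.056).

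The make-up of the 4 ID genes was read as shares of their summed RPKM. This sum was 14.3 ± 4.26 at 1 week and 15.3 ± 5.21 at 3 weeks. Id3 made up 86.4% ± 3.91 of the sum at 1 week (82.9% to 91.6%) and 60.8% ± 8.83 at 3 weeks (52.8% to 73.3%). Id2 made up 4.90% ± 1.34 and 18.0% ± 4.39, and Id1 7.37% ± 3.40 and 19.5% ± 5.89. The shares were described and not tested. The log2 ratio of Id1 to Id2 RPKM was 0.45 ± 0.93 at 1 week and 0.11 ± 0.43 at 3 weeks, a difference of -0.35 (exact two-sided permutation test over 70 arrangements, p = 0.514), so that a difference between the rises of Id1 and Id2 was not detectable. In this design the smallest p is 0.0286. The difference in the ratio depended on single samples, and ran from -0.79 without replicate 2 of 1 week (exact p = 0.0857) to -0.10 without replicate 4 of 1 week (exact p = 0.857).

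**Figure D2:**
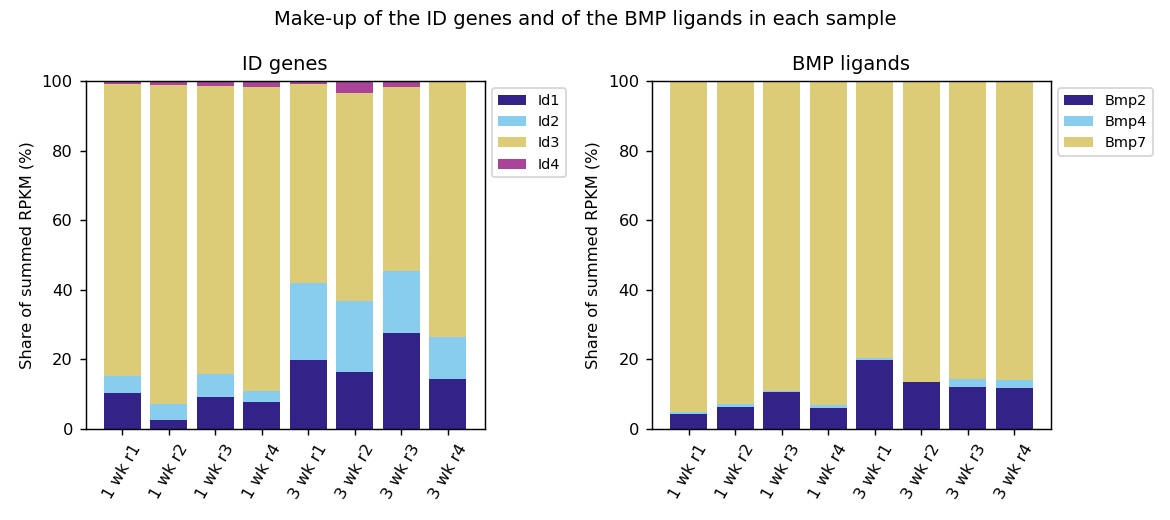
Share of the summed RPKM (vertical axis, in percent from 0 to 100) taken by each of the 4 ID genes (left) and each of the 3 BMP ligand genes (right) in the 8 samples, with 1 bar per sample (wk, weeks; r, replicate). Id3 takes 82.9% to 91.6% of the ID sum in the 1 week samples and 52.8% to 73.3% in the 3 weeks samples.

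Other genes of the pathway were read from lists of 69 genes, of which 44 had enough reads. Of these 44 genes, 7 were higher and 4 lower at 3 weeks, and 33 did not pass the test, where 15.7% of all tested genes were higher and 17.0% lower. Their median on the log2 scale was 0.13, beside 0.03 over all 12590 tested genes. The balance of calls turned with RPKM scaling, with 3 higher and 6 lower in the limma fit of log2(RPKM + 0.1) and 5 higher and 6 lower in that of log2(RPKM + 1). The number of lower genes was 2 without replicate 1 or 3 of 1 week, and 1 without replicate 4 of 1 week or without replicate 1 or 2 of 3 weeks. Calls were spread over receptors and co-receptors (2 of 9 tested, both higher), antagonists (3 higher and 1 lower of 11 tested), processing proteases (1 higher of 4 tested) and other BMP-responsive transcription factors (1 higher and 3 lower of 5 tested). No gene passed among the 2 other ligands, the 3 signalling SMADs, the 7 intracellular inhibitors and the 3 E proteins that were tested with edgeR. Of these 15 genes, 1 had an unadjusted p under 0.05 in edgeR and 1 passed with DESeq2. In both cases this was Tcf3, an E protein gene named after its values were seen (log2 fold change -0.31, adjusted p = 0.0554 in edgeR).

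**Figure D3:**
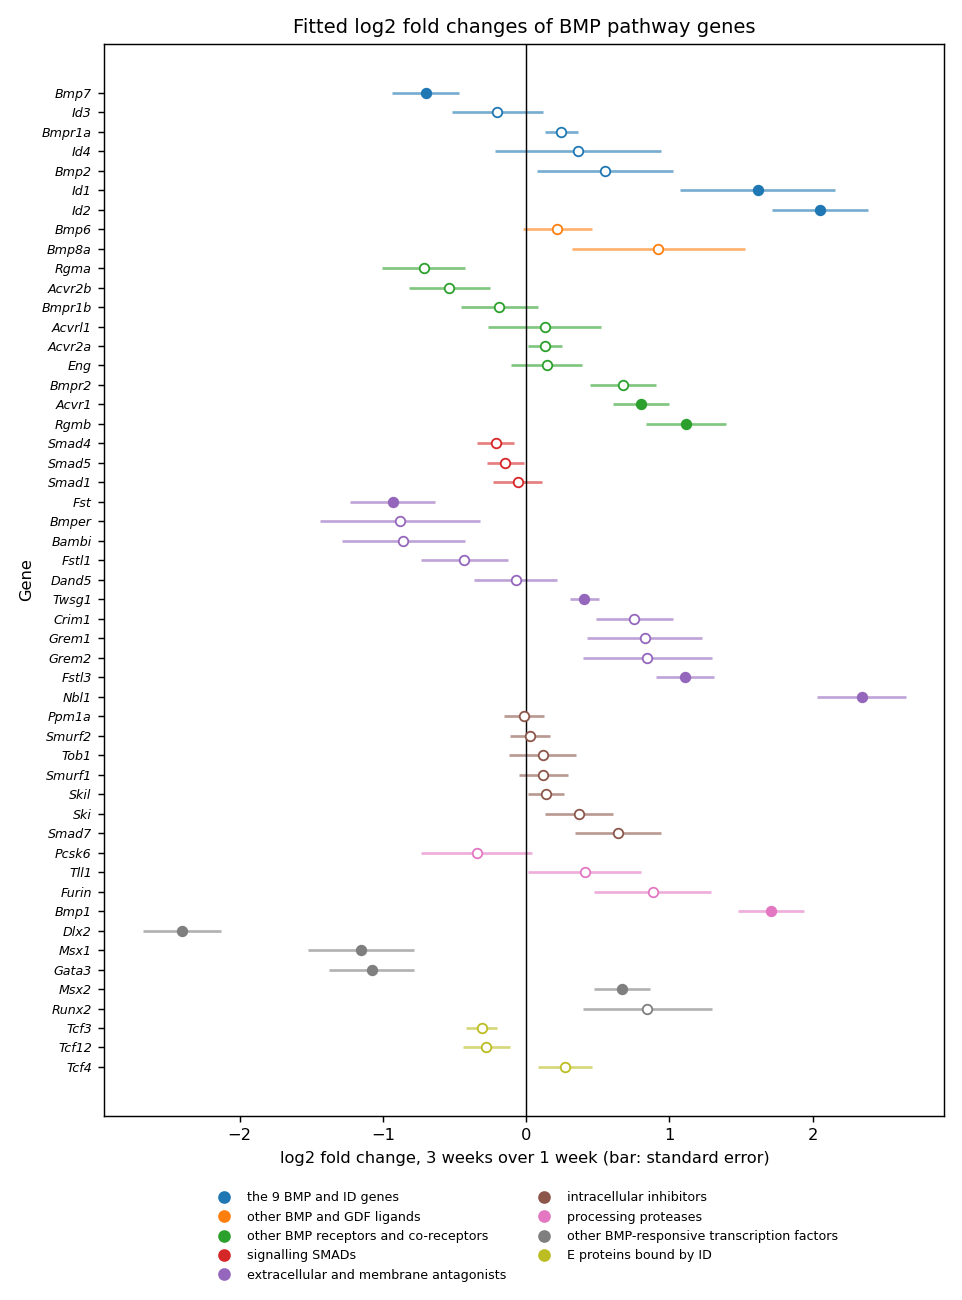
Fitted log2 fold change, 3 weeks over 1 week (horizontal axis), of the tested BMP pathway genes (vertical axis, grouped by list and colour), with bars for the standard error. Filled points have an adjusted p under 0.05 and open points do not, and the extremes are Dlx2 at -2.40 and Nbl1 at 2.34.

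The antagonist Nbl1, also known as DAN, which binds BMPs outside the cell, showed the largest rise among these genes. Its RPKM values were 15.3, 17.0, 20.01 and 13.7 in replicates 1 to 4 of 1 week and 99.2, 88.9, 75.0 and 34.2 in replicates 1 to 4 of 3 weeks. All samples of 3 weeks were higher, with replicate 4 the lowest of them, and the log2 fold change was 2.34 ± 0.31 (SE; adjusted p = 0.000876). Fstl3, a secreted binder of activins and related ligands, rose from 21.9 ± 2.52 to 42.6 ± 13.6 RPKM (log2 fold change 1.11 ± 0.20, adjusted p = 0.00357). Only 43.2% to 47.1% of its exon reads per sample mapped to a single place, which makes its level less certain, and on these reads the log2 fold change was 1.05 (adjusted p = 0.00641). Twsg1, a secreted modulator of BMP binding, rose slightly (log2 fold change 0.41 ± 0.10, adjusted p = 0.0152). This call was lost without replicate 1 of 1 week, where the log2 fold change was 0.33, and without a filter on low counts (adjusted p = 0.0863). It was lost too in the limma fits of log2(RPKM + 0.1) (adjusted p = 0.159) and log2(RPKM + 1) (adjusted p = 0.0970). The 3 shared preparations (adjusted p = 0.127) and a block by replicate number (adjusted p = 0.0770) also ended the call. Fst, which encodes follistatin, a secreted protein that binds activins and some BMPs, went the other way. In replicates 1 to 4 of 1 week Fst had 54.1, 55.5, 86.2 and 86.8 RPKM, and in replicates 1 to 4 of 3 weeks 20.5, 29.2, 28.6 and 54.4 RPKM, and replicate 4 of 3 weeks overlapped with 1 week. The log2 fold change of Fst was -0.93 ± 0.30 (SE; adjusted p = 0.0396). The call was lost without replicates 1, 3 or 4 of 1 week (log2 fold changes -1.05, -0.83 and -0.82) and without replicates 1, 2 or 3 of 3 weeks (-0.75, -0.86 and -0.93).

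Bmp1, which despite its name encodes a metalloprotease that cleaves procollagens and the antagonist chordin, rose to 3.27-fold. Its RPKM values were 7.35, 8.78, 9.94 and 6.79 in replicates 1 to 4 of 1 week and 34.9, 23.4, 14.2 and 24.4 in replicates 1 to 4 of 3 weeks. The groups did not overlap, and the log2 fold change was 1.71 ± 0.23 (SE; adjusted p = 0.000942). Acvr1, a type I receptor for BMPs, rose from 11.9 ± 1.65 to 18.5 ± 5.00 RPKM (log2 fold change 0.80 ± 0.20, adjusted p = 0.0136). Rgmb, a BMP co-receptor, rose from 1.93 ± 0.383 to 3.78 ± 1.54 RPKM (log2 fold change 1.11 ± 0.28, adjusted p = 0.0150). Samples of the 2 times overlapped for both genes, and the call of Rgmb was lost without replicate 1 of 1 week, where its log2 fold change was 0.98. In the limma fit of log2(RPKM + 0.1) neither passed (adjusted p = 0.0565 for Acvr1 and 0.0652 for Rgmb), nor did Rgmb on log2(RPKM + 1) (adjusted p = 0.0638).

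The transcription factor genes moved in both directions. Dlx2, a homeobox gene, had 1.49 to 2.76 RPKM at 1 week and 0.262 to 0.413 RPKM at 3 weeks, and fell with a log2 fold change of -2.40 ± 0.27 (SE; adjusted p = 0.000496). Gata3, a regulator of hair follicle and epidermal differentiation, fell from 3.87 ± 0.925 to 1.66 ± 0.720 RPKM (log2 fold change -1.08 ± 0.30, adjusted p = 0.0219). The call of Gata3 was lost without replicate 4 of 1 week (-0.93) and without replicate 1 (-1.07) or 2 (-1.05) of 3 weeks. The homeobox gene Msx2 rose from 4.24 ± 0.910 to 5.99 ± 0.668 RPKM (log2 fold change 0.67 ± 0.20, adjusted p = 0.0286). It lost its call without replicates 3 (0.62) or 4 (0.54) of 1 week and without replicates 2 (0.65) or 3 (0.54) of 3 weeks. The call was also lost in the 3 shared preparations (adjusted p = 0.0685) and with a block by replicate number (adjusted p = 0.0523). Further losses came without a filter on low counts (adjusted p = 0.0537) and in the limma fit of log2(RPKM + 0.1) (adjusted p = 0.0566). Msx1, a relative of Msx2, fell by 1.15 on the log2 scale (adjusted p = 0.0413), with fewer than 1 RPKM and 3 to 21 exon reads per sample. It was named after its values were seen. Without replicate 4 of 1 week or without replicate 1 or 2 of 3 weeks, Dlx2 was the only lower gene of the lists, so that Msx1 was not called.

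**Figure D4:**
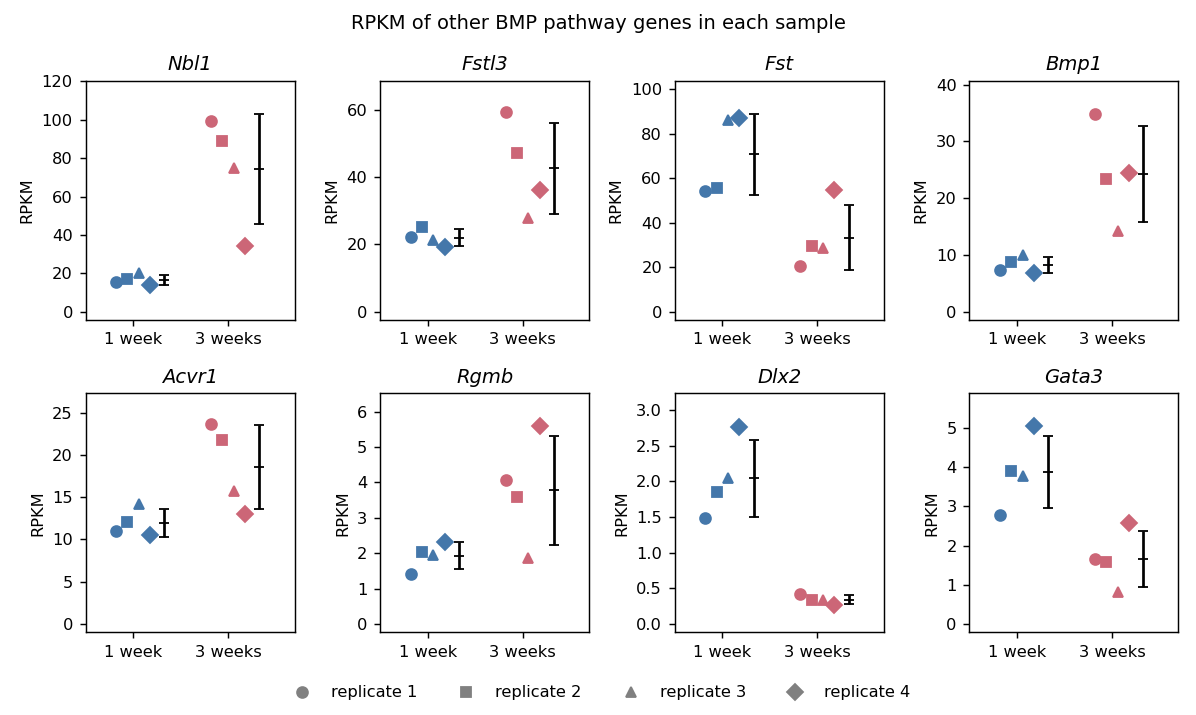
RPKM (vertical axis, linear, one scale per gene) of 8 other BMP pathway genes in the 4 samples of 1 week (blue) and the 4 samples of 3 weeks (red), with the symbol giving the replicate number and the black bar the mean ± SD. Nbl1 reaches 34.2 to 99.2 RPKM at 3 weeks, and Dlx2 has at most 0.413 RPKM there.

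Markers of the cells in the cultures were measured beside these genes. All 8 KC markers (Krt5, Krt14, Trp63, Itga6, Itgb4, Col17a1, Perp and Dsg3) had a mean above 1 RPKM, their summed level was 13297 to 15745 RPKM at 1 week and 8076 to 9518 RPKM at 3 weeks, and Krt14 was the most abundant (4465 to 7628 RPKM). Krt5, a keratin of basal KCs, fell, with a log2 fold change of -1.32 ± 0.18 (SE; adjusted p = 0.00103), as did Itga6, an integrin subunit of basal KCs, with -0.75 ± 0.24 (adjusted p = 0.0391). The other 6 KC markers did not pass the test, with log2 fold changes from -0.69 for Trp63 to 0.40 for Itgb4, and 0 of the 8 were higher. The call of Itga6 was lost without replicates 3 (-0.71) or 4 (-0.60) of 1 week and without replicates 2 (-0.85), 3 (-0.64) or 4 (-0.68) of 3 weeks. It was lost as well in the 3 shared preparations (-0.71) and with a block by replicate number (adjusted p = 0.104).

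The other cell types were represented by few reads. The 6 melanocyte markers summed to 4.76, 3.25, 15.5 and 21.0 RPKM in replicates 1 to 4 of 1 week and to 1.28, 5.60, 3.11 and 3.16 RPKM in replicates 1 to 4 of 3 weeks, so that replicates 3 and 4 of 1 week stood out. Tyrp1 was the most abundant of them, with up to 9.54 RPKM, and Pmel fell (log2 fold change -2.06 ± 0.59, adjusted p = 0.0266). Pmel overlaps other expressed genes on the opposite strand, and its call was lost without replicates 3 (-1.92) or 4 (-1.54) of 1 week and without replicates 1 (-1.82) or 3 (-2.01) of 3 weeks. At 1 week replicates 3 and 4 were also the highest for 6 of the 7 tested genes of the 9 (Bmp2, Bmp7, Bmpr1a, Id1, Id3 and Id4), for Fst and for 4 of the 8 KC markers (Trp63, Itga6, Itgb4 and Col17a1). The share of all tested genes with this pattern was not counted, so that it sets none of these genes apart. In chi-square per degree of freedom, replicates 3 and 4 of 1 week were close to each other (15.5). They lay at 47.3 to 64.7 from replicates 1 and 2 of 1 week. The part of melanocytes in these results was not tested. In bulk RNA, fewer cells of a type and less RNA per cell cannot be told apart.

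The 7 immune markers summed to 4.50, 2.82, 2.65 and 2.42 RPKM in replicates 1 to 4 of 1 week and to 7.50, 5.23, 11.1 and 4.13 RPKM in replicates 1 to 4 of 3 weeks. H2-Ab1, a class II antigen-presentation gene, was the most abundant of them at 3 weeks and rose (log2 fold change 2.74 ± 0.36, adjusted p = 0.000801). Its mean level was 0.821 RPKM at 1 week and 4.84 RPKM at 3 weeks, and the higher sum at 3 weeks came from this gene. The mean levels of Cd74 (0.932 and 0.884 RPKM), Tyrobp (0.901 and 0.853 RPKM), Fcer1g (0.421 and 0.383 RPKM) and Ptprc (0.0204 and 0.0189 RPKM) were much the same at both times. Replicate 3 of 3 weeks had the highest Cd74 (1.60 RPKM), Tyrobp (1.64 RPKM), Fcer1g (0.766 RPKM) and H2-Ab1 (7.03 RPKM) of all samples, and also the highest Id1 and Id2. Without this sample the log2 fold change was 1.22 for Id1 and 1.90 for Id2. Cd74, the only other immune marker with enough reads, did not pass the test (log2 fold change 0.11 ± 0.47, adjusted p = 0.878). Cd207, the defining gene of Langerhans cells, had 0 reads in all 8 samples. The part of immune cells in the rises of Id1 and Id2 was not tested. The 8 fibroblast markers summed to 2.64 to 5.88 RPKM over all samples, with Col1a1 the most abundant at up to 3.34 RPKM, and Pdgfrb fell (log2 fold change -1.74 ± 0.40, adjusted p = 0.0102). The call of Pdgfrb was lost in the 3 shared preparations (-1.28, adjusted p = 0.0502), and the other 7 fibroblast markers did not pass the test, with log2 fold changes from -1.31 for Twist2 (adjusted p = 0.0976) to 0.48 for Col1a1. The median of the 8 was -0.31. In single samples as few as 18.2% of the exon reads of Twist2 mapped to a single place. The 5 endothelial markers summed to 0.275 to 0.568 RPKM, with Kdr the most abundant.

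For each tested gene of the 9, the 2 genes of most like pattern over the 8 samples were sought among 10189 genes. Likeness was measured by the root mean square difference (RMSD) of the centred log2 CPM values (reads scaled by sequencing depth and by TMM). Id2 was most like Pdgfc, a growth factor gene (RMSD 0.17), and Pmp22, a myelin and epithelial membrane protein gene (0.22). Since they were chosen for this likeness, their higher levels at 3 weeks are no separate observation. Id1 had no gene as near, with Pdlim4 (0.38) and the histone gene Hist1h4i (0.44) first, and Id4 was as far from Nipal1 (0.43) and Pbdc1 (0.43). Bmp7 was most like Aars2, a mitochondrial alanyl-tRNA synthetase gene (0.06), and Xylb, a xylulokinase gene (0.11). Id3 was most like Krt6b, a keratin gene (0.14), and Itpripl1 (0.18), and Bmp2 most like Lama3, a laminin subunit gene (0.25), and Lima1 (0.28). The level of Krt6b was 291.4 ± 81.1 RPKM at 1 week and 200.6 ± 93.0 RPKM at 3 weeks. Bmpr1a was most like Ttc8 and Capn7 (both 0.04).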

How the data were processed

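The gene tables of 8 samples of mouse KCs were used, 4 of 1 week and 4 of 3 weeks, grouped by their labels. The authors aligned the reads to GRCm38 in the CLC Genomics Workbench and deposited read counts per gene, without normalization, as well as RPKM values, which were written with decimal commas. Use of the strand in counting is not given in the sources used here.

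The exon read totals entered edgeR 4.0.16 under R 4.3.3 (filterByExpr, TMM, glmQLFit and glmQLFTest, no pairing), and SEs were derived from the F statistics. The procedure was tested on simulated data. Alternatives were a block by replicate number, only the 3 preparations with numbers at both times (with that number as block, taken from the deposited tables; it crosses the replicate numbers 2 and 3 of the labels), DESeq2 1.42.0, upper-quartile scaling, no filter, a minimum of 10 reads in every sample, unique exon reads, total gene reads, limma 3.58.1 on log2(RPKM + 0.1) or log2(RPKM + 1), and the omission of each sample. Figures were drawn with Python 3.11.15 and matplotlib 3.10.9.

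The text names the 9 genes, each other pathway gene with an adjusted p under 0.05 and a mean of at least 1 RPKM at either time (up to 20), the 2 genes most like each tested gene of the 9 with a mean of at least 1 RPKM leaving out predicted-gene symbols, and the markers. The members and the lists were chosen with earlier results of these data known. Start windows came from RefSeq (GRCm38.p6). P-values measure the spread between the cultures of each time.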

Additional observations from a re-analysis of the deposited data

Results flagged for a closer look

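The samples of each time were compared for single values far from the other 3 (134 groups of 4 values, and chance gives about 1 in 20). In 5 groups 1 sample stood apart, fewer than chance alone gives. For Id2, replicate 3 of 1 week had 1.26 RPKM, and the other 3 samples had 0.458 to 0.582. For Pdgfc, which was chosen as the gene most like Id2 and so adds no separate observation, the same sample had 0.862 RPKM, and the others had 0.457 to 0.487. Cd74, an antigen-presentation gene, had 1.60 RPKM in replicate 3 of 3 weeks and 0.604 to 0.724 in the others. Cd3e, a T cell gene, had 0.0119 RPKM in replicate 2 of 1 week and 0.0149 RPKM in replicate 2 of 3 weeks, where the others had 0, and each of these values is a single read.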

How the results depend on the processing

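Over the 18 alternatives, the number of genes past the threshold was 2867 to 4882, against 4127, and Id2 (log2 fold changes 1.09 to 2.44), Nbl1, Bmp1, Fstl3 and Dlx2 kept their direction and their call. Bmp2, Bmpr1a and Id3 passed in none. Acvr1, Rgmb, Gata3, Fst, Twsg1 and Msx2 kept their direction in all 18 and lost their call in 1, 3, 3, 6, 6 and 8 of them. Id1 lost its call in the 3 shared preparations (log2 fold change 0.85, adjusted p = 0.147), without a filter (1.55, 0.0528), on log2(RPKM + 0.1) (1.49, 0.0536) and in all omissions of a sample (1.22 to 1.89), and it was not among the genes with at least 10 reads in every sample. Bmp7 lost its call with the replicate block (-0.73, adjusted p = 0.106), in the 3 shared preparations (-0.75, 0.0890) and in 5 of the 8 omissions (-0.84 to -0.57 over all 8). Id4 changed sign in the 3 shared preparations (-0.19), and its omissions ran from -0.056 to 0.65. The other pathway genes called higher numbered 3 on log2(RPKM + 0.1), against 7, and those called lower 1 to 5 over the omissions, against 4. Without the filter, Bmp4 and Smad6 had adjusted p-values of 0.953 and 0.390. The sign of Nipal1 and Pbdc1, both near 0, turned in the 3 shared preparations (-0.33 and -0.48), without a filter (-0.035 and -0.050), on unique exon reads (-0.0053 and -0.020), on log2(RPKM + 0.1) (-0.17 and -0.20) and on log2(RPKM + 1) (-0.15 and -0.16). That of Pbdc1 also turned with the block (-0.036) and on total gene reads (-0.017), and omissions ran from -0.13 to 0.26 for Nipal1 and from -0.28 to 0.24 for Pbdc1. For the Id1 to Id2 ratio, omissions gave -0.79 to -0.10, and unique exon reads are the same data, since all reads of both genes were unique. For these changes the cause was not tested, other than that the omissions and the shared preparations have fewer samples. Replicates 1 and 4 carry the same preparation number at both times, and replicates 2 and 3 do not. As a set, the replicate numbers did not pair the samples: the correlations of their deviations from the group means were -0.23, -0.15, -0.15 and 0.25 for numbers 1 to 4, and only number 4 correlated best with its own. For the preparation numbers 46, 49 and 90 they were -0.23, 0.20 and 0.25, and 49 and 90 correlated best with their own. The block left 2867 calls, and Msx2, Twsg1 and Itga6 were not among them (adjusted p = 0.0523, 0.0770 and 0.104). The low reads of Id1, Id4, Bmp2, Bmp4 and Smad6 limit what could be detected.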
